A study of Mus musculus with 36 samples.

Results

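The comparison covers 12 of 36 RNA sequencing libraries from mouse bone marrow-derived macrophages. Of these, 6 libraries carry the labels WT and control and 6 carry the labels WT and LPS at 2 h. The libraries were chosen by the genotype and treatment labels and not by any measured value. The genotype label reads WT in 5 libraries of each group and BMDM WT in 1, and the series design gives wild type as C65BL6. All 12 cultures were marrow cells grown for 5 days in medium with serum and 20 ng/mL MCSF, the growth factor that turns marrow progenitors into macrophages. The treated group then received lipopolysaccharide (LPS), a component of the outer membrane of Gram-negative bacteria, at 100 ng/mL for 2 h. The labels give no age, sex, animal or batch. Separate animals or cultures are not stated either. The p-values here therefore set a difference only against the spread between libraries, and that spread may be technical.

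Macrophages bind LPS through CD14 and the complex of TLR4 with MD-2. The adaptor MyD88 leads from there to NF-kB and the MAP kinases, and the adaptor TRIF leads to IRF3 and to interferon beta. A first group of target genes needs no new protein, and its products include cytokines, other transcription factors and the inhibitors that end the signal. Secreted interferon beta then acts back on the cells through its receptor and the JAK-STAT pathway. At early times the first targets and the start of the interferon response overlap.

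Library totals ran from 9157129 to 18482551 counts. The 12 libraries fell into sets of 3 per group that are not in the labels, called set A (replicate numbers 1, 2 and 6) and set B (the other numbers), found from the first principal component of all 36 libraries after each group's mean was subtracted. These sets come from the same counts that are tested below. P-values for a difference between sets, or with the set as a term, therefore describe this split and are not independent of it. Macrophage markers summed to between 12976 and 17390 CPM (counts scaled to a common library size) in controls and to between 16341 and 20755 CPM after LPS, and no macrophage marker was at 0. Neutrophil markers summed to between 31.5 and 224 CPM in controls and to between 59.4 and 356 CPM after LPS, highest in the set B libraries of both groups. Skeletal muscle markers summed to 215 CPM in LPS replicate 5 and to 548 CPM in LPS replicate 6, against at most 67.2 CPM in the other 10 libraries. Xist stood at 370 CPM in control replicate 1 and at 464 CPM in LPS replicate 1, and at most at 0.095 CPM in the others. The Y-linked gene Ddx3y was at 0 in replicate 1 of both groups and between 62.8 and 85.4 CPM in the other libraries. By these genes replicate 1 of each group read as female and the other libraries as male. Dendritic cell markers summed to between 1.504 and 4.416 CPM in controls and to between 7.26 and 13.2 CPM after LPS. Of 6 tested, 3 were called higher, against 20.3% of all tested genes. Total counts went from 23 to 441 for Xcr1, 46 to 278 for Zbtb46 and 14 to 61 for Ccr9. Flt3 (27 and 49), Clec9a (13 and 17), Cd209a (1 and 4), Siglech (38 and 34) and Bcl11a (69 and 67) moved less. Mast cell and basophil markers summed to between 4.34 and 9.37 CPM and to between 8.64 and 25.4 CPM, with 2 of 3 tested called higher. Hdc went from 19 to 835 counts and Gata2 from 28 to 102. The defining markers Cpa3 (14 and 14), Fcer1a (0 and 2) and Mcpt8 (8 and 11) stayed near 0. Stromal markers summed to at most 46.3 CPM in controls and 80.3 CPM after LPS. Markers of T and NK cells, B cells and erythroid cells summed to at most 13.5 CPM in any library, and the T cell gene Cd3e and the NK cell gene Ncr1 were at 0 in all 12. The part of these cells in the results was not tested. Nos1, the gene of the other genotype label in the series, ranged from 0 to 0.300 CPM in the 12 WT-labelled libraries and from 2.35 to 5.07 CPM in the control and 2 h libraries labelled NOS1 KO. That order goes against the KO label, so groups are called by their labels here. No comparison in this text uses the KO label.

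Of 12957 genes tested, 4915 (37.9%) were called different between LPS and control by edgeR's quasi-likelihood test with Benjamini-Hochberg adjustment at 0.05. Called higher were 2626 genes (20.3% of those tested) and called lower were 2289 (17.7%). Counts of called members in each gene list below are to be read against these shares. For counts in set A alone the shares of all genes are 21.2% higher and 17.2% lower. In set B alone they are 26.5% and 24.3%. The changes were not of the same size in both directions. More than 4-fold higher were 595 called genes, and more than 4-fold lower were 70. A test against a minimum change of 2-fold called 779 genes higher and 148 lower. When libraries were scaled by their totals alone, without the trimmed mean of M-values (TMM), 1578 genes were called higher and 6040 lower. The share of calls that were higher was then 20.7% instead of 53.4%, and the median log2 fold change of all genes moved from -0.02 to -0.32. With the library set as a term in the same fit, 3065 genes (23.7%) were called higher and 2959 (22.8%) lower, which include all genes called without it. List members called with that term alone are given below where they change what a list shows. The fold changes below are relative to the TMM scale, on which the typical gene stands still. In bulk RNA, fewer cells of a type and less RNA per cell cannot be told apart.

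**Figure D1:**
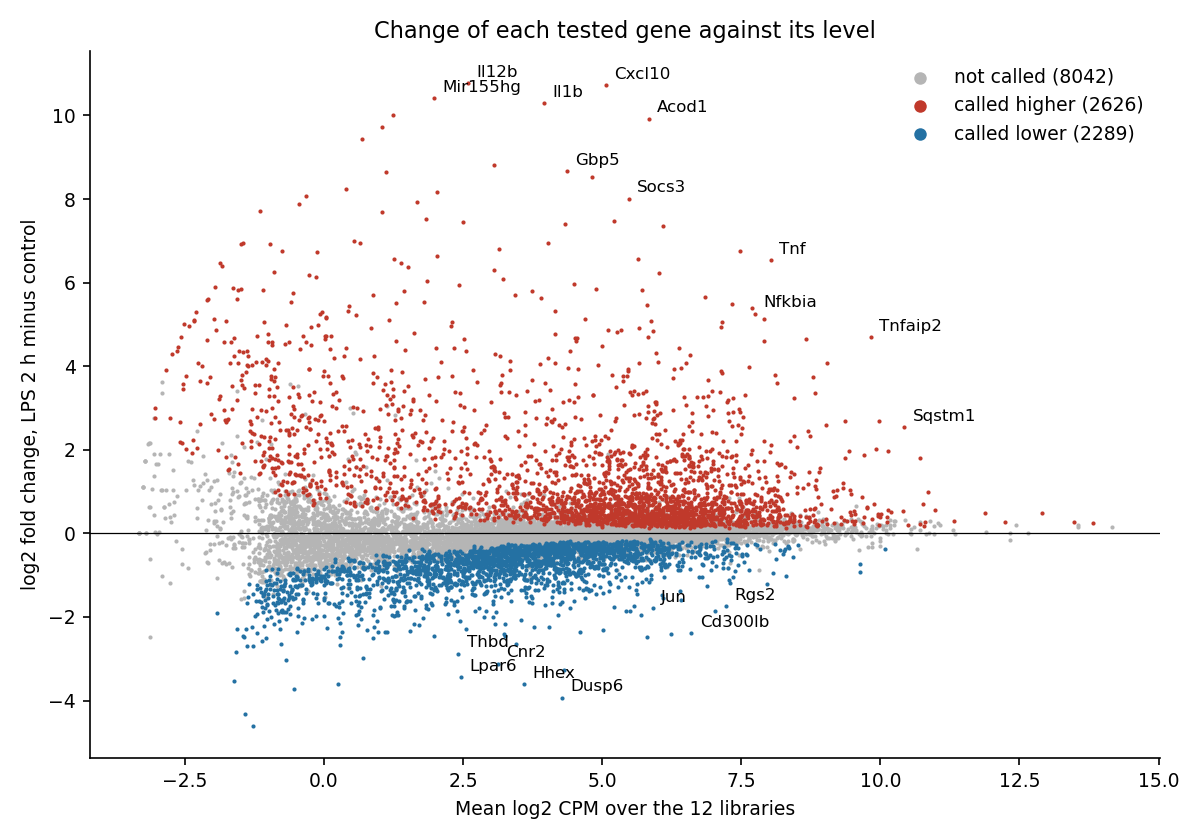
Each point is 1 of the 12957 tested genes, with its mean log2 CPM over the 12 libraries on the horizontal axis and its log2 fold change (LPS 2 h minus control) on the vertical axis. Genes called higher (red, 2626) reach changes of more than 10 log2 units, while the genes called lower (blue, 2289) lie above -5.

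The genes more than 4-fold higher started from a median of 1.85 CPM in controls, against 22.2 CPM for all tested genes. Their 6 control and 6 LPS values did not overlap in 90.8% of cases, against 22.2% of all tested genes. The genes called higher by less than 2-fold numbered 1475, with a median control level of 50.2 CPM. Their groups did not overlap in 52.6% of cases. Among the genes called lower by less than 2-fold, which numbered 1657, the groups did not overlap in 39.5% of cases. For small changes the call therefore often rested on means of overlapping groups.

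The stretches before the start sites of 7 genes with large rises are printed here because they hold letters that match the binding motifs of NF-kB or of the interferon-activated factors. Nfkbia encodes the NF-kB inhibitor IkB-alpha. Cxcl1, Cxcl2 and Cxcl10 encode chemokines, Ifnb1 encodes interferon beta, and Ifit1 and Rsad2 encode antiviral proteins. Capitals mark every match to the motif named for that gene below, on either strand. The sequences are from RefSeq on build GRCm38.p6 (mm10), run 5′ to 3′ on the strand of the gene, and end at the base before the RefSeq start site or, for Cxcl1, Cxcl2 and Ifit1, before the start of the GENCODE M21 gene model.
Nfkbia: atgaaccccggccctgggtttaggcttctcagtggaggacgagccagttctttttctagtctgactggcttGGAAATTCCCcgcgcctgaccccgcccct
Cxcl1: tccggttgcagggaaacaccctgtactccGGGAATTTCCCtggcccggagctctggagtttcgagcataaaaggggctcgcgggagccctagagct
Cxcl2: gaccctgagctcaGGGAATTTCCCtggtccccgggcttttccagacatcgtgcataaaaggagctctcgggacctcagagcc
Ifnb1: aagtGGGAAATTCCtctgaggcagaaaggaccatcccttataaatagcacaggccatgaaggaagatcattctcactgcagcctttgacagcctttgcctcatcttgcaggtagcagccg
Cxcl10: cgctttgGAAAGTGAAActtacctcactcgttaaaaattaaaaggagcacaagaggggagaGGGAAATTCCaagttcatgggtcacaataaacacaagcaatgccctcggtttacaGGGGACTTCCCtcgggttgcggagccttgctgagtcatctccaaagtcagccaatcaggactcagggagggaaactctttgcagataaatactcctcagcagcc
Ifit1: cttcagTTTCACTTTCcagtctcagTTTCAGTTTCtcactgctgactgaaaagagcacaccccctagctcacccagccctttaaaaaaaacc
Rsad2: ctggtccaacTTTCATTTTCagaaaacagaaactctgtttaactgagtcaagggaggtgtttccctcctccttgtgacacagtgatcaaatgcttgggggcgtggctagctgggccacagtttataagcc
These stretches lie at chr12:55492648-55492747 on the minus strand (Nfkbia), chr5:90891145-90891240 on the plus strand (Cxcl1), chr5:90903789-90903870 on the plus strand (Cxcl2), chr4:88522795-88522914 on the minus strand (Ifnb1), chr5:92348890-92349109 on the minus strand (Cxcl10), chr19:34640779-34640870 on the plus strand (Ifit1) and chr12:26456453-26456582 on the minus strand (Rsad2). The capitals in Nfkbia, Cxcl1, Cxcl2 and Ifnb1 are NF-kB matches. In Cxcl1 and Cxcl2 a match on each strand overlaps, shifted by 1 base. Cxcl10 holds an interferon-stimulated response element (ISRE) match 213 to 204 bases before the start, an NF-kB match 159 to 150 bases before it, and overlapping NF-kB matches between 104 and 94 bases before it. Ifit1 holds 2 ISRE matches, at 104 to 95 and 85 to 76 bases before the RefSeq start, which lies downstream of the printed end. Rsad2 holds 1 at 120 to 111 bases before its start.

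Such matches were counted in the 250 bases before the RefSeq start of 9770 tested genes, on both strands. The NF-kB motif was searched as its decamer consensus, the ISRE as GAAANNGAAA and the AP-1 motif as TGANTCA. An NF-kB match lay before 17.6% of the 420 matched genes more than 4-fold higher, before 8.12% of the genes not called and before 4.44% of the 45 genes more than 4-fold lower. An ISRE match lay before 10% of the genes more than 4-fold higher and before 2.69% of those not called. An AP-1 match lay before 10.9% and 4.24% of these classes. Of all 32851 promoters in the table, 7.25% held an NF-kB match, 2.98% an ISRE match and 6.75% an AP-1 match. The genes with smaller rises were closer to the rest, with 10.9% (2- to 4-fold) and 9.75% (under 2-fold) for NF-kB. Promoters of the largest rises had a median of 55.6% G and C, against 59.2% for genes not called. Within bands of base composition the order was kept for NF-kB and ISRE, and AP-1 was not compared within bands. Among promoters under 45% G and C, an NF-kB match lay before 13.9% of the largest rises and 5.01% of genes not called, and an ISRE match before 22.1% and 5.73%. Among those of 60% or more, NF-kB stood at 23.7% and 10.5%, and ISRE at 3.21% and 0.937%. By list, 19 of 36 matched interferon-stimulated genes held an ISRE, and 7 of 13 matched NF-kB inhibitors and 4 of 9 CXC chemokines held an NF-kB match. These lists were chosen for their known regulation, so the counts describe them only.

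**Figure D2:**
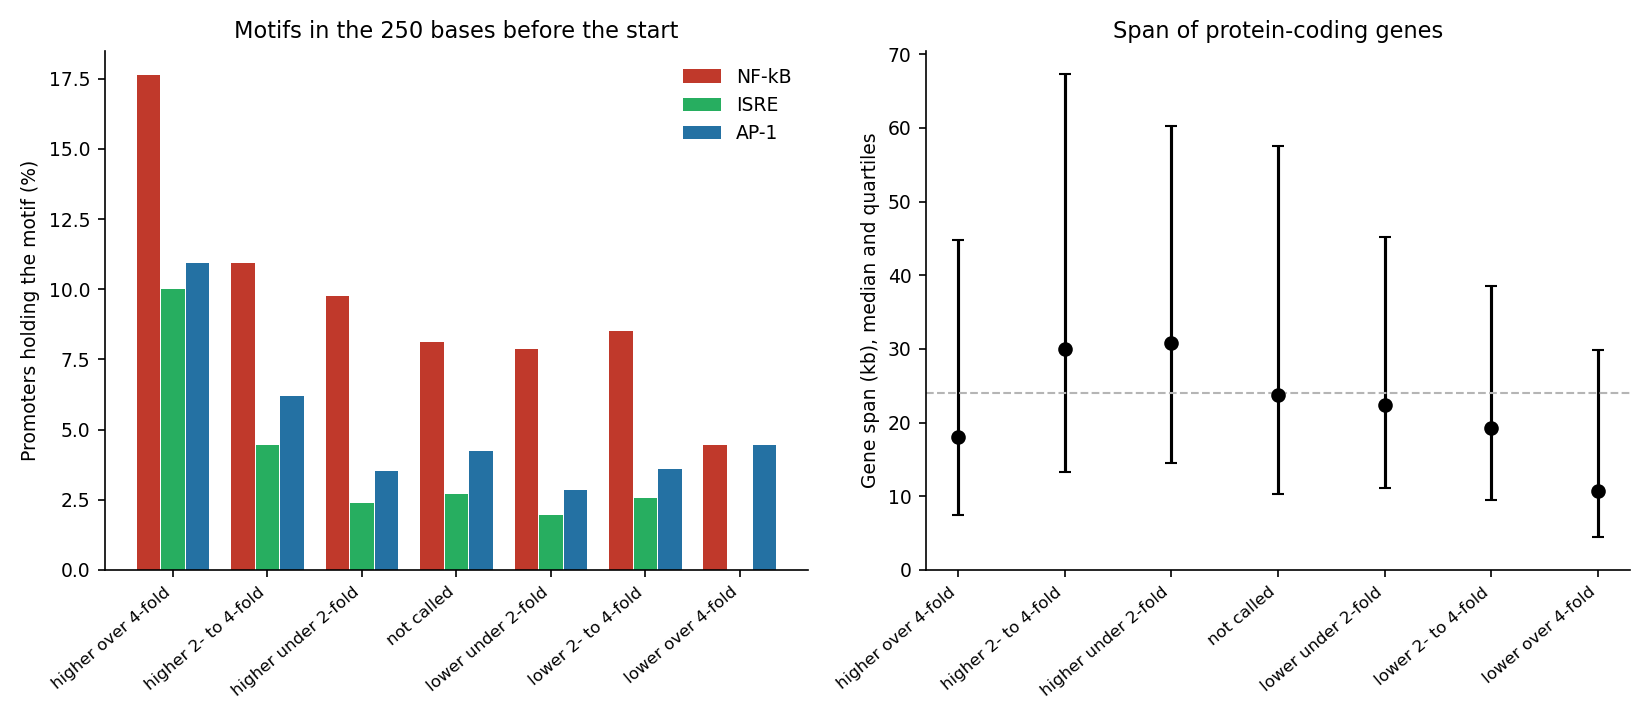
Left, the share (%) of genes in each class of change with an NF-kB, ISRE or AP-1 match in the 250 bases before the start, which is highest for genes more than 4-fold higher (17.6%, 10% and 10.9%). Right, the median genomic span in kb of protein-coding genes in each class, with bars from the lower to the upper quartile and a dashed line at the median of all tested protein-coding genes. It shows 18.0 kb for the largest rises and 30.7 kb for rises under 2-fold.

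Genes with the largest changes in either direction were short. Protein-coding genes more than 4-fold higher had a median span of 18049 bases and a median of 7 exons in their longest transcript, against 24066 bases and 9 exons for all tested protein-coding genes. Rises of 2- to 4-fold and under 2-fold had longer medians, 29930 and 30739 bases. Falls of more than 4-fold had a median of 10735 bases and 5 exons, falls of 2- to 4-fold 19222 bases, and falls under 2-fold 22354 bases. Span moves with expression level, so the same was read among genes with 5 to 50 CPM in controls. There the largest rises had a median span of 23711 bases, close to the 24844 bases of genes not called, while rises of 2- to 4-fold stood at 33577 bases and falls of more than 4-fold (19 genes) at 16244 bases. The short span of the largest rises was thus not seen in this band, and the short span of the largest falls was.

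Genes that rose more than 4-fold often lay side by side. Of the 595, 248 (41.7%) had another such gene within 100 kb. Among the same number of genes with the largest falls, 149 (25.04%) had another of that class within 100 kb. The longest runs held 6 such genes each. On chromosome 1 (chr1:173896345-174044411) these were Ifi211, Ifi203, Ifi202b, Gm18445, Ifi205 and Olfr433, mostly members of the interferon-inducible p200 family. On chromosome 19 (chr19:34473778-34650009) they were Ch25h, Ifit2, Ifit3, Ifit1bl1, Ifit3b and Ifit1. On chromosome 4 (chr4:63214004-63403354) they were Col27a1, Orm1, Gm11212, Orm3, Orm2 and Akna, of which the Orm genes encode acute phase proteins. The chemokine genes Cxcl9, Cxcl10 and Cxcl11 with Art3 made a run on chromosome 5 (chr5:92321347-92414628), and Il1a and Il1b with their neighbours Gm14023 and Il1bos made one on chromosome 2 (chr2:129297370-129375748). Near-identical copies, such as the Orm genes, Ifit3 with Ifit3b and the p200 family, may share reads in the authors' counting. Overlapping and antisense genes may too, since no strand setting is given, so members of these runs are not all separate measurements.

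Secreted factors held many of the largest rises. Of 41 tested cytokines and growth factors, 27 were called higher and 2 lower, of 11 CXC chemokines 7 were higher, and of 14 CC chemokines 11 were higher. Il12b, the p40 chain of interleukins 12 and 23, ranged from 0 to 0.255 CPM in controls with a median of 0.0979, and from 93.9 to 267 CPM after LPS with a median of 218. Every LPS library was far above every control. The control libraries held 9 Il12b counts in all and the LPS libraries 17856, a ratio of 1629 after scaling for library size (exact 95% interval 858 to 3562, counting error only). Ifnb1 ranged from 0 to 0.0849 CPM in controls (median 0.0337) and from 26.7 to 75.6 CPM after LPS (median 42.2). With 3 control counts in all, its ratio was 1034 (exact 95% interval 353 to 5015). The LPS values of Ifnb1 fell apart by set, with all 3 set A libraries above all 3 set B libraries. Il6, the pyrogenic cytokine, rose from a control median of 0.0723 CPM (0 to 0.170) to a median of 35.2 CPM (13.2 to 42.3), from 6 counts to 2843. Cxcl3, a neutrophil chemokine, had 3 control counts and 3417 LPS counts, a ratio of 935 (exact 95% interval 320 to 4536).

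Among the neutrophil chemokines with more control counts, Cxcl1 rose from a median of 0.413 CPM (0.120 to 0.677) to 152 CPM (145 to 230). Its log2 fold change was 8.82 ± 0.39 (SE, adjusted p = 1.56e-19, edgeR). Cxcl2 rose from a median of 3.11 CPM (0.420 to 5.94) to 549 CPM (463 to 716), and its response was 6.99 within set A against 8.61 within set B on the log2 scale. Il10, an anti-inflammatory cytokine, rose from a median of 1.19 CPM (0.255 to 2.23) to 18.2 CPM (14.1 to 55.7), a log2 change of 4.45 ± 0.52. Its LPS values spread widely, but none reached the controls. Ccl5 and Ccl22, which attract T cells, rose by 8.53 ± 0.42 and 5.94 ± 0.70 on the log2 scale. Ccl2, the main monocyte chemokine, was already at a median of 430 CPM in controls, with a range of 146 to 752, and rose to a median of 3037 CPM (1506 to 3651). Its log2 change was 2.70 ± 0.40 (adjusted p = 1.02e-06, edgeR). No chemokine of either class was called lower, and 4 CXC and 3 CC chemokines did not pass the test.

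Falls among secreted factors were few. Vegfa, the endothelial growth factor, fell from a median of 38.4 CPM (33.2 to 49.7) to 18.2 CPM (14.5 to 20.8), with no overlap. Its log2 change was -1.16 ± 0.18 (adjusted p = 3.38e-06, edgeR). Tnfsf13, which encodes the B cell factor APRIL, was lower by 0.84 on the log2 scale with overlapping groups. The other 12 cytokines and growth factors did not pass the test.

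The parts of the LPS receptor system moved in different directions. Of 34 tested receptors and adaptors, 24 (70.6%) were called higher and 4 (11.8%) lower, against 20.3% and 17.7% of all tested genes. Tlr2, the receptor for bacterial lipopeptides, rose from a median of 16.7 CPM (12.1 to 18.9) to 840 CPM (535 to 1086), a log2 change of 5.66 ± 0.19 (adjusted p = 5.73e-23, edgeR). Its groups were far apart. Tlr4 itself was called lower, from a median of 79.2 CPM (56.5 to 94.8) to 36.7 CPM (34.4 to 64.9). The groups overlapped, and the log2 change was -0.80 ± 0.21, with -0.36 within set A against -1.24 within set B. That difference between the sets was itself called (adjusted p = 0.0062, edgeR), on a split found from the same counts. Cd14, the LPS co-receptor, rose by 2.33 on the log2 scale. The adaptor genes Ticam1 (TRIF), Ticam2 (TRAM) and Myd88 rose by 1.32, 1.46 and 1.0.

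Below the receptors, Traf1, a TNF receptor adaptor, rose from a median of 3.96 CPM (3.32 to 8.05) to 183 CPM (93.1 to 199), a log2 change of 5.13 ± 0.35. Peli1, a ubiquitin ligase of the IRAK complex, rose by 3.96 ± 0.18, and the decoy kinase gene Irak3 by 1.20. Tab1, a partner of the kinase TAK1, fell from a median of 20.2 CPM (15.7 to 24.0) to 8.11 CPM (6.14 to 9.67), with no overlap and a log2 change of -1.30 ± 0.15 (adjusted p = 4.65e-09, edgeR). Tab2, the gene of another TAK1 partner, rose by 1.0. Tlr13, a receptor for bacterial ribosomal RNA, was lower by 0.50 ± 0.10 with overlapping groups. The remaining gene called lower in this list was Ripk1.

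All 5 NF-kB subunit genes rose. Nfkb2 rose from a median of 38 CPM (32.9 to 45.6) to 402 CPM (367.3 to 461.9), a log2 change of 3.42 ± 0.10. Relb and Rel rose by 3.34 ± 0.16 and 3.08 ± 0.14. Nfkb1 rose from a median of 71.3 CPM (67.9 to 73.3) to 420 CPM (377.6 to 496.7), by 2.58 ± 0.08, and Rela by 1.47 ± 0.12. These groups did not overlap for any of the 5. Malt1, the paracaspase that activates the pathway from other receptors, rose by 3.87 ± 0.13. Map3k14, which encodes NIK, the kinase of the noncanonical arm, was called lower by 0.67 ± 0.12 with overlapping groups.

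Of 16 tested NF-kB inhibitor and A20 feedback genes, 15 were called higher and none lower, and the median log2 change of the list was 2.77. Nfkbie, which encodes IkB-epsilon, rose from a median of 8.52 CPM (7.91 to 12.3) to 259 CPM (230.1 to 395.4), a log2 change of 4.93 ± 0.15. Tnfaip3, which encodes the ubiquitin-editing enzyme A20, rose by 4.60 ± 0.28, by 5.39 within set A against 3.88 within set B. Bcl3, Tnip3 and Tnip1, further partners of NF-kB and A20, rose by 3.31, 3.68 and 2.78. Tnfaip2, an NF-kB target with a role in membrane protrusions, rose from a median of 179 CPM (160 to 196) to 4612 CPM (3835 to 5648). No other called gene gained as many CPM.

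Immediate early transcription factors included changes in both directions, with more rises. Of 38 tested, 21 (55.3%) were called higher and 4 (10.5%) lower, against 20.3% and 17.7% of all tested genes. Jdp2, a repressor that pairs with Jun proteins, rose from a median of 13.9 CPM (8.12 to 21.5) to 298 CPM (229 to 330), a log2 change of 4.32 ± 0.22. Maff, a small Maf protein, rose by 3.57 ± 0.24 and Junb by 3.14 ± 0.18. Nr4a3, an orphan nuclear receptor, rose by 5.54. Jun, in contrast, fell from a median of 119 CPM (81.2 to 158) to 30.2 CPM (21.3 to 57.3) with no overlap, a log2 change of -1.79 ± 0.24 (adjusted p = 1.35e-07, edgeR). The fall was -0.93 within set A against -2.73 within set B, and this difference was called. Fos, its partner in AP-1, was lower by 1.35 ± 0.28 with overlapping groups, and Id1, an inhibitor of helix-loop-helix factors, by 1.58 ± 0.50, also with overlap. Egr1 ranged from 4.76 to 84.3 CPM in controls and from 30.9 to 80.5 CPM after LPS. Its log2 change of 0.43 ± 0.53 did not pass the test, with -0.08 within set A against 2.10 within set B. Myc ranged from 44.5 to 62.5 CPM in controls and from 27.3 to 51.9 CPM after LPS. Its change of -0.50 ± 0.24 did not pass the test (adjusted p = 0.0989, edgeR), and without LPS replicate 1, its highest LPS library, it was -0.64 (adjusted p = 0.038, edgeR).

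The dual-specificity phosphatases, which switch off MAP kinases, went both ways. With the Sprouty genes, 8 of 19 (42.1%) were higher and 4 (21.05%) lower, against 20.3% and 17.7% of all tested genes. Dusp6, which acts on ERK in the cytoplasm, showed the largest fall among the named genes, from a median of 79.4 CPM (63.0 to 85.1) to 4.98 CPM (2.58 to 7.50). Its groups were far apart, with a log2 change of -3.93 ± 0.20 (adjusted p = 1.32e-17, edgeR). Spry2, a Sprouty inhibitor of receptor kinase signalling, fell from a median of 14.8 CPM (14.1 to 15.8) to 3.70 CPM (1.94 to 7.33). The phosphatases that were higher included Dusp2 (4.05 ± 0.27 on the log2 scale), Dusp14 (3.07), Dusp16 (1.92 ± 0.25) and Dusp1 (1.85 ± 0.52). Dusp1 varied most, from 16.1 to 106 CPM in controls and from 89.8 to 390 CPM after LPS, so its groups overlapped.

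Among 22 genes of mRNA decay 12 (54.55%) were called higher and 3 (13.6%) lower, against 20.3% and 17.7% of all tested genes. Zc3h12a and Zc3h12c, which encode the ribonuclease Regnase-1 and its relative, rose by 4.10 ± 0.15 and 4.08 ± 0.19 on the log2 scale. Zfp36, which encodes tristetraprolin, the protein that marks Tnf and other cytokine mRNAs for decay, rose from a median of 79.2 CPM (53.2 to 104) to 294 CPM (278 to 345). Its relative Zfp36l2 fell from a median of 114 CPM (95.3 to 127) to 39.0 CPM (34.5 to 52.2), a log2 change of -1.48 ± 0.13. Zc3h12d, a relative of Regnase-1, fell by 0.87. None of these groups overlapped, and the remaining gene called lower was Cnot8.

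Cytokine receptors signal through JAK kinases and STAT factors, and SOCS proteins shut them off. Cish, a SOCS family gene usually induced by STAT5, rose from a median of 0.350 CPM (0.278 to 0.482) to 37.2 CPM (30.0 to 48.0), a log2 change of 6.64 ± 0.32 (adjusted p = 1.54e-18, edgeR). The JAK-STAT list had 15 of 27 genes higher and 2 lower. Jak2 and Stat5a rose by 2.96 and 2.88. Socs6 fell from a median of 48.4 CPM (35.6 to 55.1) to 23.6 CPM (21.8 to 34.8), with no overlap and a log2 change of -0.82 ± 0.14, by 0.40 within set A against 1.23 within set B. Stat2, a subunit of the interferon-activated complex, rose by 1.15.

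The interferon system was uneven at this time. Of 18 regulatory factors and nucleic acid sensors 12 were higher and 2 lower. Irf1 rose from a median of 26.3 CPM (16.8 to 30.5) to 792 CPM (673 to 1046), a log2 change of 5.05 ± 0.22. Ifih1, which encodes the RNA sensor MDA5, rose from a median of 18.3 CPM (13.6 to 27.9) to 320 CPM (266 to 698), and Ifi205, a p200 DNA sensor gene, by 7.44 ± 0.52. Ddx58, the gene of the related sensor RIG-I, was higher by 1.01 with overlapping groups. Irf7, the factor that amplifies type I interferon, was higher by 1.94 ± 0.56, but the groups overlapped because control replicate 1 stood at 45.1 CPM. Irf8 and Mavs, the latter an adaptor of RNA sensing, were lower by 0.68 ± 0.20 and 0.46 ± 0.08. Of 48 interferon-stimulated genes 38 were higher and none lower. Rsad2 rose from a median of 18.2 CPM (9.84 to 29.1) to 1521 CPM (1279 to 3301), and Ifit1 from 4.69 CPM (1.98 to 12.5) to 412 CPM (340 to 879). The other 10 did not pass the test, among them Oas2 (0.46), whose controls ranged from 6.54 to 59.7 CPM.

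The transcription factors that set macrophage identity were rearranged rather than shifted as a group, with 17 of 36 called higher and 10 lower. Prdm1, which encodes the repressor Blimp-1, rose from a median of 4.65 CPM (3.66 to 6.18) to 111 CPM (101.1 to 138.2), a log2 change of 4.60 ± 0.19. Tfec, a macrophage-restricted relative of Mitf, rose by 3.71 ± 0.19, Cebpb by 1.84 ± 0.20 and Spi1, which encodes the master factor PU.1, by 0.86 ± 0.08. Cebpa, the myeloid differentiation factor, fell from a median of 103 CPM (82.6 to 117) to 25.8 CPM (20.5 to 33.6), by 1.53 within set A against 2.42 within set B on the log2 scale. Its family thus moved apart, with Cebpb and Cebpd (1.37, overlapping groups) higher and Cebpa lower. Hhex, a homeobox repressor, fell by 3.61 ± 0.44. Maf and Fli1 fell by 1.11 and 1.17.

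Receptors at the cell surface changed in both directions. Of 39 chemokine and other G protein-coupled receptors 19 (48.7%) were higher and 7 (17.95%) lower, against 20.3% and 17.7% of all tested genes. The share lower was thus close to that of all genes. In set A alone 10 receptors were lower and in set B alone 16, where 17.2% and 24.3% of all genes were lower. Ccrl2, an atypical chemerin receptor, rose from a median of 7.25 CPM (6.92 to 8.86) to 489 CPM (459 to 855), a log2 change of 6.22 ± 0.16. Gpr84, a receptor for medium-chain fatty acids, rose by 5.06 ± 0.57, Hcar2, the niacin receptor, by 4.37 ± 0.42 and Adora2a, an adenosine receptor, by 6.38. Cnr2, the cannabinoid receptor of immune cells, fell from a median of 26.7 CPM (18.7 to 32.4) to 2.86 CPM (2.30 to 3.89), a log2 change of -3.11 ± 0.24 (adjusted p = 3.62e-13, edgeR). Lpar6 fell from a median of 17.7 CPM (14.4 to 29.3) to 1.39 CPM (0.835 to 3.77), while the related lysophosphatidic acid receptor gene Lpar1 rose by 4.72. Cxcr4 was lower by 1.39 ± 0.35 with overlapping groups, by 0.30 within set A against 2.32 within set B. Ccr2 and Cx3cr1, the monocyte chemokine receptors, had log2 changes of -1.04 ± 0.51 and -0.43 ± 0.63 that did not pass the test. With the library set as a term Ccr2 was called lower, by 0.93 ± 0.15 (adjusted p = 5.26e-06, edgeR).

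Among 45 cytokine and growth factor receptors 18 were higher and 6 lower. Cd40, which T cells engage, rose from a median of 11.6 CPM (8.40 to 15.1) to 329 CPM (300 to 360), a log2 change of 4.84 ± 0.28. Met, the hepatocyte growth factor receptor, and Il15ra rose by 3.60 ± 0.37 and 3.15 ± 0.25. Il21r fell from a median of 36.8 CPM (34.8 to 46.0) to 16.6 CPM (12.8 to 21.8). Csf1r, the MCSF receptor, ranged from 787 to 1049 CPM in controls and from 901 to 2001 CPM after LPS, with overlap. Its log2 change of 0.45 ± 0.15 was called (adjusted p = 0.0156, edgeR). Without LPS replicate 1 the change was 0.25 and was not called (adjusted p = 0.129, edgeR), and on library totals it was 0.14 and not called.

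**Figure D3:**
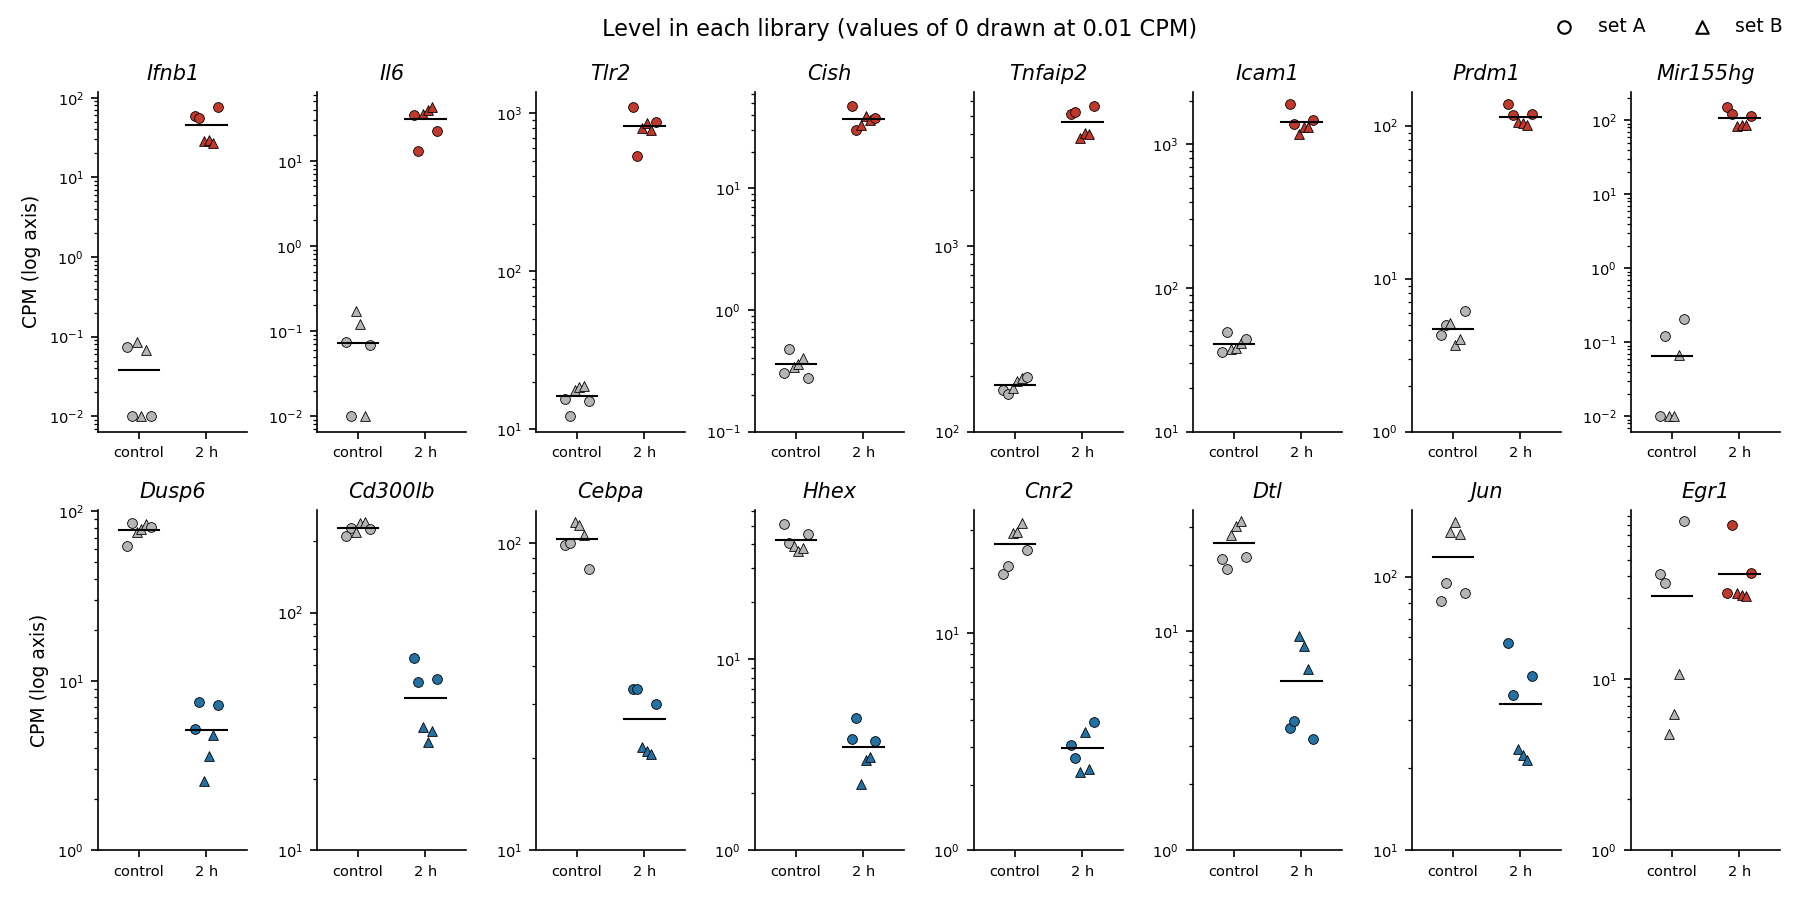
CPM on a log axis in each of the 6 control and 6 LPS 2 h libraries for 16 genes, with a black line at the group mean. Circles are set A and triangles set B, and values of 0 are drawn at 0.01 CPM. The groups overlap for Egr1 and for none of the other 15 genes, and Jun and Cd300lb show the set A libraries above the set B libraries after LPS.

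Some of the largest falls were in genes outside these families. Arrdc3, an arrestin domain protein that restrains receptors, fell from a median of 58.7 CPM (37.0 to 107) to 6.69 CPM (5.20 to 8.26), a log2 change of -3.27 ± 0.25. Gpr146 fell by 2.65 ± 0.19, Fam78a by 2.46 ± 0.15 and Ppp1r3b, a glycogen-targeting phosphatase subunit, by 2.41 ± 0.34. Cd300lb, an activating receptor of myeloid cells, fell from a median of 226 CPM (211 to 242) to 42.0 CPM (28.6 to 64.3). Arhgap25, a Rac regulator of phagocytes, fell from 198 CPM (139 to 227) to 34.2 CPM (17.2 to 59.9), and Rgs2, a regulator of G protein signalling, from 288 CPM (237 to 312) to 78.2 CPM (57.8 to 125). None of these groups overlapped. Cyth4 and Lhfpl2 also had large losses in CPM, with log2 changes of -1.02 ± 0.14 and -1.86 ± 0.41.

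Several metabolic genes rose. Acod1, which makes itaconate from an intermediate of the citric acid cycle, rose from a median of 1.71 CPM (0.663 to 5.94) to 2058 CPM (1139 to 2736), a log2 change of 9.93 ± 0.50 (adjusted p = 5.49e-18, edgeR). Of 36 genes of the cycle and respiratory chain, Cs, Dlst, Ndufa1, Cox6c and Atp5a1 were called higher and none lower, with changes between -0.17 and 0.56. The share higher, 13.9%, lay under the 20.3% of all tested genes. In set B alone 13 were higher and 1 lower, and in set A alone 3 were higher. Of all genes 26.5% were higher in set B alone and 21.2% in set A alone. Slc7a2, the arginine transporter that feeds nitric oxide synthesis, rose from a median of 4.31 CPM (2.83 to 7.81) to 114 CPM (93.9 to 172). Gch1, which starts synthesis of the cofactor of nitric oxide synthase, rose by 1.86 ± 0.13, and Arg2 by 4.42. Of 20 genes of nitric oxide, itaconate and arginine metabolism 12 were higher and none lower.

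Of 25 glycolysis and hypoxia genes 6 (24%) were higher and 2 (8%) lower, close to the 20.3% and below the 17.7% of all tested genes. In set A alone 7 were higher and 2 lower, and in set B alone 15 were higher and 4 lower. Slc2a6, a lysosomal hexose transporter, rose from a median of 22.5 CPM (14.2 to 30.9) to 372.2 CPM (289 to 517). Hk2, the inducible hexokinase, rose by 1.34 ± 0.23 and Hif1a by 1.03 ± 0.13. Pfkfb4 and Pdk1 fell by 0.87 ± 0.16 and 0.51 ± 0.16. The other 17, which include the core enzymes Gapdh, Pkm, Eno1 and Ldha, did not pass the test. Among 15 prostaglandin and leukotriene enzymes, Ptgs2, the inducible cyclooxygenase, rose from a median of 1.49 CPM (0.625 to 2.72) to 194 CPM (116 to 243). Ptges, which completes prostaglandin E2 synthesis, rose from 2.5 CPM (1.20 to 3.23) to 12.2 CPM (11.6 to 15.5). Ptges3 was also called higher, and the other 12 did not pass the test. Those 3 calls are 20% of the list, close to the 20.3% of all tested genes. Slc7a11, the cystine transporter that supports glutathione synthesis, rose by 5.31 ± 0.42 and Sod2, the mitochondrial superoxide dismutase, by 3.25 ± 0.11. Of 29 antioxidant and metal handling genes 11 were higher and 1, Keap1, was lower. In set B alone, where 24.3% of all genes were lower, 6 were lower.

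Cholesterol genes gave different answers in the library sets. Of 34 genes of sterol synthesis and efflux 7 (20.6%) were higher and 2 (5.88%) lower in all libraries. The shares of all tested genes were 20.3% and 17.7%. In set A alone 18 of the 34 were higher and none lower, and in set B alone 9 were higher and 17 lower. The median log2 change of the list was 0.13, 0.58 within set A against -0.20 within set B, and it was -0.17 when all libraries were scaled by totals alone. The difference between the sets was called for 11 of the 34, against 6.03% of all genes. Insig1, which holds the sterol sensor in the endoplasmic reticulum, was chosen after its values were seen. It stood at 64.2 to 191 CPM in controls and at 151 to 398.1 CPM after LPS, with changes of 1.85 within set A against -0.05 within set B (adjusted p of the difference = 0.000647, edgeR). The Insig1 control values of set A (64.2 to 108 CPM) lay under those of set B (149 to 191 CPM), and the LPS values of the sets overlapped. Abca1, the cholesterol exporter, was higher by 1.27 ± 0.37 with overlapping groups, and Nr1h3, which encodes the oxysterol receptor LXR-alpha, rose by 0.84 ± 0.14. Soat1, which esterifies cholesterol, was lower by 0.31 ± 0.07.

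Some adhesion and pattern receptors rose. Olr1, the receptor for oxidised lipoprotein, rose from a median of 0.120 CPM (0 to 0.539) to 60.2 CPM (48.6 to 85.1). Clec4e, which encodes the lectin Mincle, rose from 26.9 CPM (13.7 to 32.5) to 1205 CPM (828 to 1266). Of 41 scavenger, phagocytic and lectin receptors 11 were higher and none lower, and the other 30, which include Mrc1, Trem2, Cd36 and Msr1, did not pass the test. Within the sets some were lower, with 15 higher and 4 lower in set A alone and 20 higher and 9 lower in set B alone. Of all genes 17.2% were lower in set A alone and 24.3% in set B alone. With the library set as a term 17 were higher, Msr1 among them (0.52 ± 0.18, adjusted p = 0.0153, edgeR), and 1, Cd300lf, was lower. Icam1, the leukocyte adhesion ligand, rose from a median of 39.7 CPM (35.9 to 49.5) to 1350 CPM (1185 to 1897). The fibronectin receptor subunit Itga5 and the vitronectin receptor subunit Itgav rose by 2.33 ± 0.12 and 2.57 ± 0.19. Of 28 integrins and adhesion molecules 14 were higher and 1, Itga6, was lower, and the leukocyte integrin genes Itgam and Itgb2 were among the 13 that did not pass the test.

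Of 43 extracellular proteases, coagulation and matrix genes 23 were higher and 3 lower. Mmp13, a collagenase, rose from a median of 37.1 CPM (30.4 to 49.5) to 508 CPM (460 to 757). The complement gene C3 and the acute phase gene Saa3 rose by 4.03 ± 0.40 and 3.90 ± 0.60. Thbd, which encodes thrombomodulin and restrains clotting, fell from a median of 15.2 CPM (6.09 to 23) to 2.09 CPM (1.5 to 2.49), a log2 change of -2.88 ± 0.33. F3, the gene of tissue factor, which starts clotting, rose by 2.48. Plat, a plasminogen activator, rose from at most 0.15 CPM in controls to between 10.0 and 16.8 CPM. Plau, which encodes the other activator, was called lower with overlapping groups, as was Mmp19.

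Many ligands for T cells rose. Of 22 costimulation and checkpoint genes 13 were higher and none lower. In set B alone, where 24.3% of all genes were lower, 4 were lower. Cd83 rose from a median of 22.3 CPM (21.1 to 35.2) to 799 CPM (697 to 832), Icosl by 3.89 ± 0.25 on the log2 scale, and Cd274, which encodes the checkpoint ligand PD-L1, by 2.94. Of 30 MHC and peptide presentation genes 17 were higher and none lower. Tapbp, the chaperone that loads class I molecules, rose from 151 CPM (128 to 201) to 351 CPM (325 to 556). The class II genes H2-Aa (0.69), H2-Ab1 (0.87) and Cd74 (0.76) did not pass the test, although Ciita, their regulator, rose by 2.95. With the library set as a term H2-Aa (0.80, adjusted p = 0.0398, edgeR) and H2-Ab1 (1.07, adjusted p = 0.0201, edgeR) were called higher.

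Genes of cell death included opposite changes. Of 45 tested, 20 (44.4%) were higher and 8 (17.8%) lower, against 20.3% and 17.7% of all tested genes. The share lower was thus close to that of all genes. Nlrp3, the inflammasome sensor, rose from a median of 51.5 CPM (43.2 to 58.6) to 772 CPM (673 to 988), a log2 change of 3.97 ± 0.16. Pycard, which encodes the inflammasome adaptor ASC, was lower by 0.46 with overlapping groups. Cflar, the inhibitor of caspase 8, rose from 75.7 CPM (54.2 to 89.8) to 987 CPM (906 to 1238). Gadd45a was lower by 0.92 ± 0.29 with overlapping groups, and Gadd45b, another member of its family, rose by 3.39. Bmf and Bcl2l11, which both encode killers of the BCL2 family, moved apart, with Bmf lower by 2.04 and Bcl2l11 higher by 2.90. The Bcl2a1 genes are near-identical copies, and their separate values are uncertain.

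Genes of the G1 and S phases fell more often than they rose, with 15 of 44 called lower and 5 higher, Cdkn1a among these. The other genes called higher were Ccnd2, Cdk6, Cdkn1b and E2f8. More were called lower once the sets were taken into account, with 33 in set A alone, 32 in set B alone and 35 with the library set as a term. The median log2 change of the list was -0.54, with -0.79 in set A, -0.39 in set B and -0.84 on library totals alone. Dtl, a subunit of a ligase that limits replication licensing, fell from a median of 24.6 CPM (19.2 to 31.7) to 5.31 CPM (3.22 to 9.53), a log2 change of -2.08 ± 0.31 (adjusted p = 1.06e-06, edgeR). Cdc6, which loads the replicative helicase, fell from 17.5 CPM (11.7 to 22.9) to 4.36 CPM (2.35 to 6.17). Ccne2, an activator of S phase entry, was lower by 1.36 ± 0.37 with overlap. Cdkn1a, which encodes the cell cycle inhibitor p21, rose from 336 CPM (274 to 491) to 1341 CPM (997 to 1831), a log2 change of 1.97 ± 0.33. The helicase subunits Mcm2 to Mcm7 had changes between -0.63 and -0.44, and none passed the test without that term. With it all 6 were called lower, by 0.52 (Mcm6) to 0.78 (Mcm2) on the log2 scale, with adjusted p-values of 4.09e-05 (Mcm4) to 0.0039 (Mcm6, edgeR). Of 36 genes of G2 and mitosis 5 (13.9%) were lower, among them Plk3 (-2.11 ± 0.28) and Ccnf (-1.23 ± 0.32), and 2 (5.56%) were higher. Both shares lay under the 17.7% and 20.3% of all tested genes, and the other 29 genes did not pass the test. In set A alone 2 were lower and in set B alone 22, and 10 were lower with the library set as a term.

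The paired clock activators moved apart, as Clock rose by 0.70 ± 0.11 and Arntl, which encodes its partner BMAL1, fell by 0.68. Per1, a repressor in the same loop, was lower by 1.41 ± 0.23 with overlap, Csnk1d was called higher, and 14 of 18 clock genes did not pass the test. In set A alone 5 of the 18 were higher and 2 lower, and in set B alone 2 were higher and 7 lower. Among 31 stress response genes, Ppp1r15a, which encodes GADD34, the subunit that restores translation, rose from a median of 43.8 CPM (29.8 to 73.5) to 313 CPM (277 to 418). Ddit3, which encodes CHOP, fell from 27.6 CPM (20.5 to 42.4) to 14.9 CPM (13.2 to 19.9), and Sesn1, a p53 target that restrains mTORC1, from 107 CPM (87.0 to 174) to 39.8 CPM (28.6 to 57.2).

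Of 40 chromatin modifiers 14 were higher and 10 lower. Kdm6b, which removes methyl groups from histone H3 lysine 27, rose from a median of 6.51 CPM (4.66 to 11.1) to 57.6 CPM (43.0 to 124), a log2 change of 3.18 ± 0.34. Tet2 rose from 22.6 CPM (18.4 to 26) to 73.9 CPM (52.7 to 85.0), and Tet3, which also oxidises methylcytosine, fell from 74.5 CPM (62.0 to 91.2) to 32.8 CPM (29.5 to 36.5). The DNA methyltransferases Dnmt3a and Dnmt1 fell by 0.82 ± 0.15 and 0.72 ± 0.17, also without overlap. In the lysosome list 9 of 37 (24.3%) were higher and 3 (8.11%) lower, against 20.3% and 17.7% of all tested genes. In set B alone 7 were lower, where 24.3% of all genes were lower. Sqstm1, the autophagy receptor p62, rose from a median of 559 CPM (515 to 663) to 3260 CPM (2977 to 3889). Tfeb, the activator of lysosome genes, fell from 34.3 CPM (27.4 to 50.3) to 15.4 CPM (15.0 to 25.2).

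**Figure D4:**
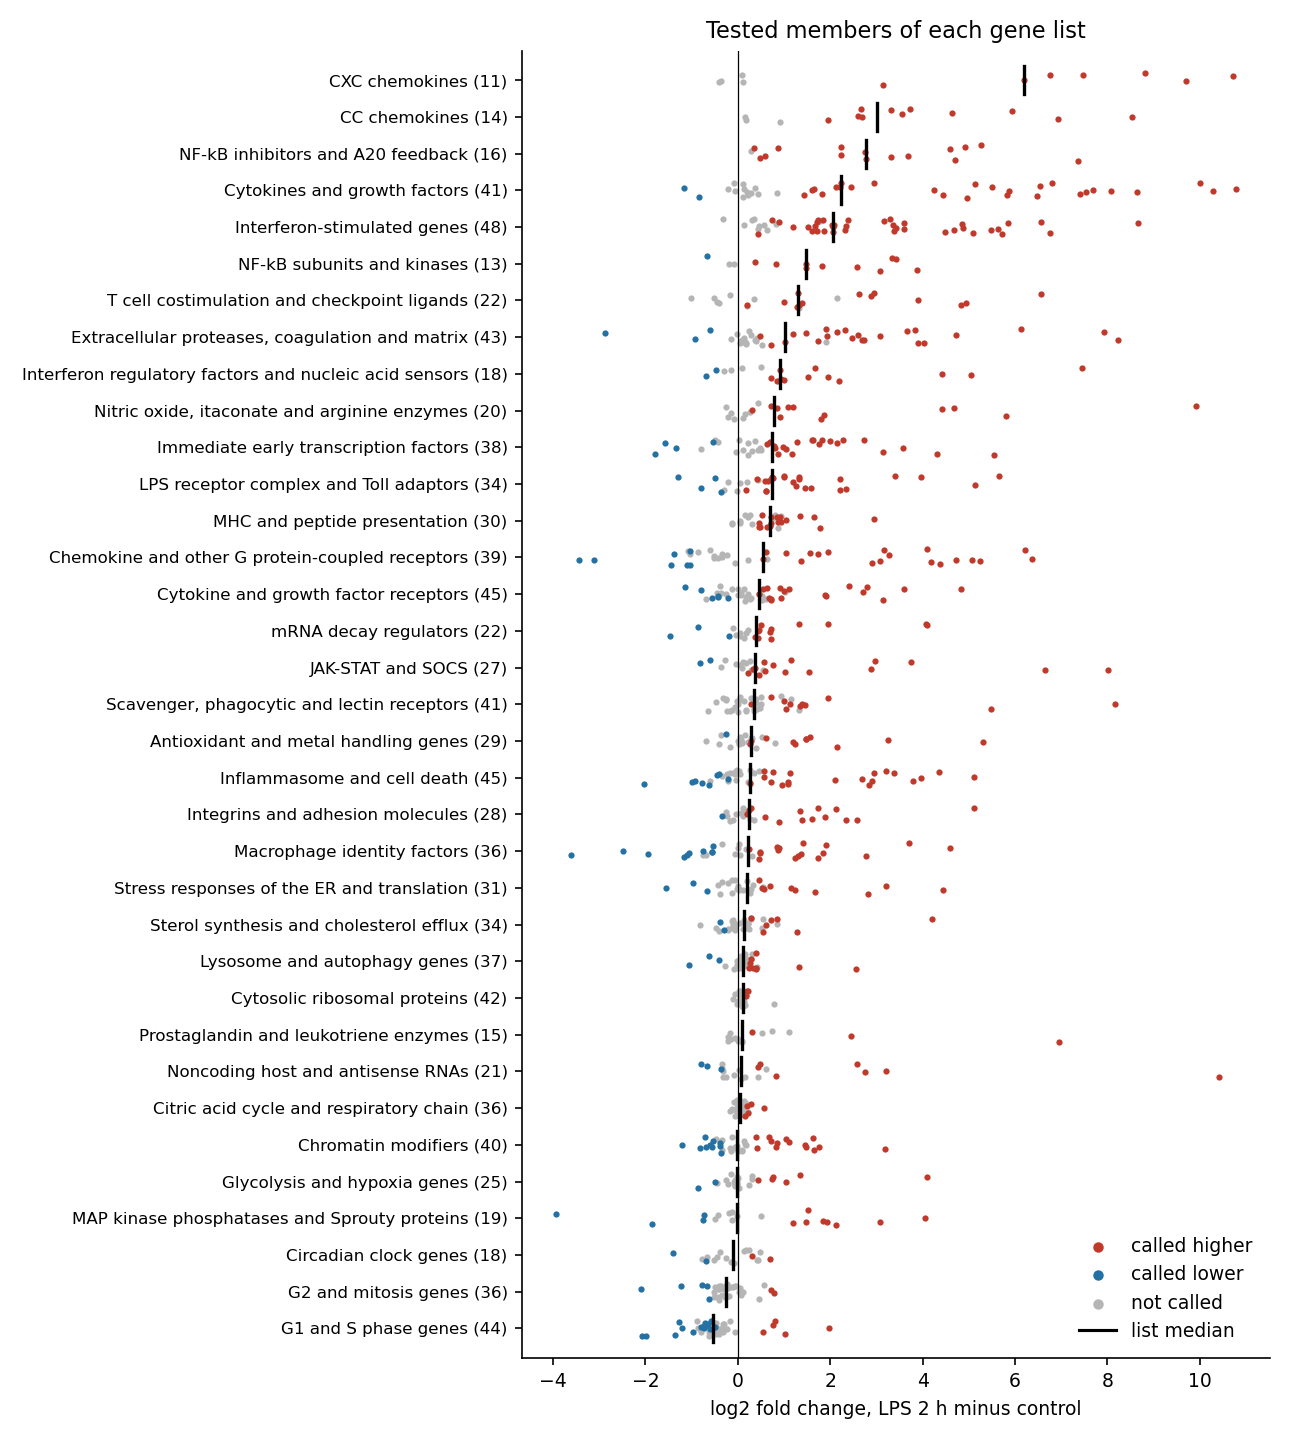
Log2 fold change (LPS 2 h minus control) of every tested member of 35 gene lists, 1 row per list with the number tested in brackets, coloured by call, and a black bar at the list median. CXC chemokines have the highest median (6.19) and G1 and S phase genes the lowest (-0.54), and 29 medians lie above 0, of which 18 remain above 0 when libraries are scaled by totals alone.

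Of the noncoding genes, Mir155hg, the host transcript of miR-155, rose most. It ranged from 0 to 0.208 CPM in controls (median 0.0337) and from 84.9 to 149 CPM after LPS (median 99.9). The ratio, scaled in the same way, was 1242 (exact 95% interval 570 to 3385, counting error only), from 6 control counts to 9078. The files count the long host transcript and not the mature miRNA, whose sequences are shown because they are what the transcript carries. The mature arms are at chr16:84714143-84714165 and chr16:84714182-84714202 on the plus strand of GRCm38.p6 (RefSeq), with the seed (bases 2 to 8), which pairs with target mRNAs, in capitals.
mmu-miR-155-5p: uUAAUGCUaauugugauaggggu
mmu-miR-155-3p: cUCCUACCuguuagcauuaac
AW112010, a noncoding-annotated transcript of immune cells, rose from a median of 2.02 CPM (1.63 to 2.64) to 32.8 CPM (29.1 to 56.9). Of 21 noncoding host and antisense RNAs 7 were higher and 3, Gas5, Pvt1 and Dnmt3aos, were lower, while Neat1 and Malat1 were among the 11 that did not pass the test. With the library set as a term Malat1 was called higher (0.45, adjusted p = 0.0243, edgeR). By annotation class, 22.8% of 237 antisense genes were called higher and 10.5% lower, and of 256 long noncoding genes 14.5% were higher and 21.1% lower, against 20.5% and 18.1% of 11714 protein-coding genes. Ptgs2os2, an antisense neighbour of Ptgs2, rose by 3.20, but its reads and those of the coding gene beside it cannot be told apart without a strand setting.

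Shares of all counts were compared for 4 gene groups. Cytokine and chemokine genes took 0.468% ± 0.0474 (SD, n = 6) of all counts in controls and 2.18% ± 0.187 (SD, n = 6) after LPS (exact permutation test, two-sided, p = 0.002165, adjusted p = 0.00866 over 4 shares). That p is the smallest that 6 against 6 libraries allow. The genes in this share were listed with earlier results of these data known, so the p is not an independent test of them. The range was 0.389% to 0.535% in controls and 1.91% to 2.44% after LPS. The 50 most counted genes of each library took 21.2% ± 0.263 and 21.3% ± 0.175 of counts (exact permutation test, two-sided, p = 0.524, adjusted p = 0.698). That result depended on the number of genes. The 20 most counted took less after LPS, 15.67% ± 0.344 against 15.01% ± 0.303 (exact permutation test, two-sided, unadjusted p = 0.00433), and the 200 most counted took more, 34.55% ± 0.412 against 36.07% ± 0.298 (exact permutation test, two-sided, unadjusted p = 0.002165). Ribosomal protein genes took 1.90% ± 0.149 and 1.64% ± 0.12 (exact permutation test, two-sided, p = 0.00433, adjusted p = 0.00866). Without the libraries with muscle markers or Xist this difference was -0.13 percentage points (exact permutation test, p = 0.0536). On the TMM scale, 3 of 42 ribosomal protein genes (Rpl19, Rpl34 and Rps9) were called higher and none lower, with a median log2 change of 0.10, which was -0.20 on library totals alone. In set A alone 1 was higher and 1 lower, and in set B alone 29 were higher and none lower. The direction of this family thus turned with the scaling. The 37 mitochondrially encoded genes of the files held 0 counts in every library, so their share, the fourth of those adjusted over, was 0 in both groups (exact permutation test, p = 1) and says nothing of RNA quality. Plek, an actin-linked substrate of protein kinase C, had 1 of the largest gains in CPM from a high control level, from a median of 916 CPM (639 to 1126) to 3100 CPM (3024 to 3598).

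The response as a whole was shared by the library sets. In set A alone 2713 of 12785 genes (21.2%) were higher and 2196 (17.2%) lower, and in set B alone 3438 of 12975 (26.5%) were higher and 3149 (24.3%) lower. Of 12508 genes with values in both, 3758 were called in both sets, 3686 of them in the same direction and 72 in opposite directions. The size of the response did differ for some genes, between sets that were found from the same counts. The difference between the sets was called for 813 of 13475 genes (6.03%) by edgeR's test of the interaction. With the 12 libraries alone it was called for 201 genes, and without the libraries with muscle markers or Xist, where set A has 1 LPS library left, for 64. Of the 813, set B lay above set A for 199 and below it for 605 of those with values in both fits, and the signs of the responses were opposite for 309. Among the genes more than 4-fold higher in all libraries 56 had a called difference, and among those more than 2-fold lower 54 had. Socs3 rose by 8.85 within set A against 7.40 within set B, Slc7a11 by 6.24 and 4.37, Cflar by 4.11 and 3.51, and Clock by 0.97 and 0.43. Falls that were larger in set B included Cd300lb (-1.98 and -2.90), Arhgap25 (-2.06 and -3.06), Spry2 (-1.32 and -2.61) and Rgs2 (-1.29 and -2.25). Arrdc3 fell more in set A (-3.76 and -2.59). Neutrophil markers moved with the sets, as given above, and their part in these differences was not tested.

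**Figure D5:**
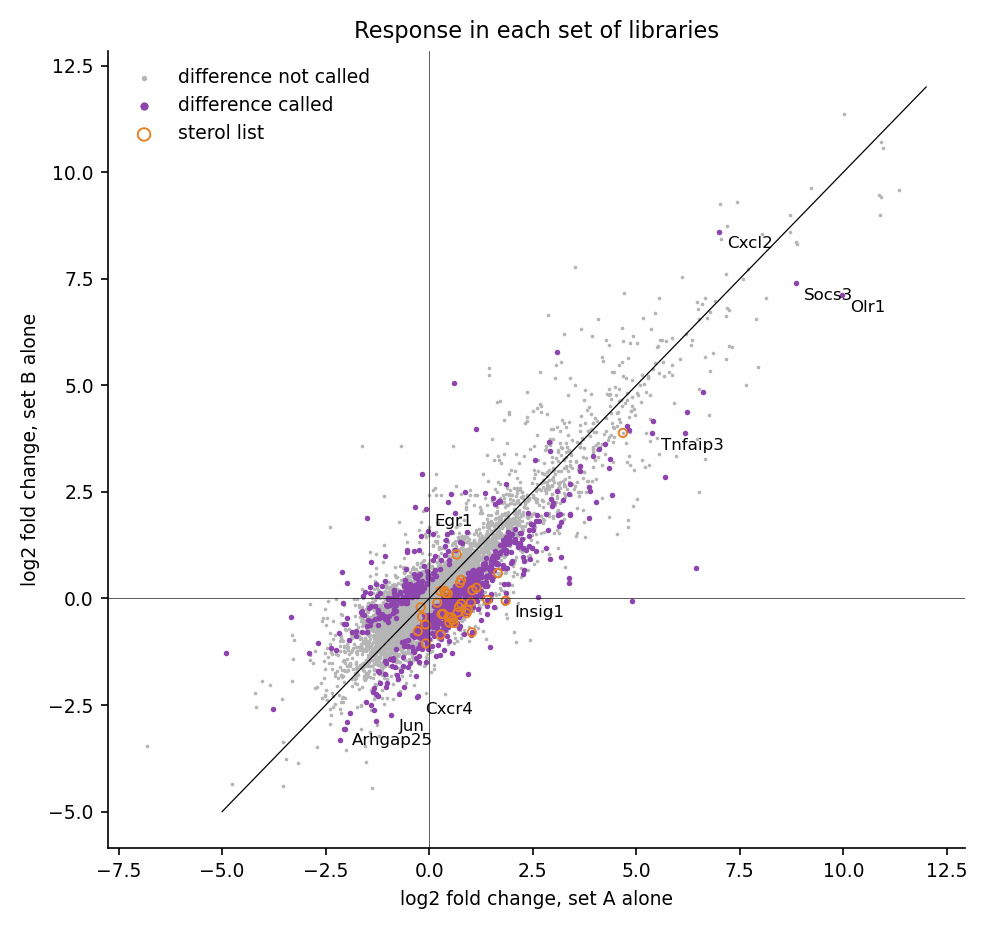
Log2 fold change (LPS 2 h minus control) in set A alone (horizontal) and in set B alone (vertical) for each gene with a value in both. Purple points are genes whose difference between the sets was called, orange rings mark the sterol list, and the diagonal is equality. Most points lie along the diagonal, and the sterol genes lie mostly below it, to the right of 0 in set A.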

How the data were processed

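RNA from the 36 libraries, 12 of which are described here, was sequenced and counted per gene by the authors, and the values used are the raw read counts they deposited, 1 table per library with 54232 gene identifiers. HTSeq and mm10 are named in the submitters' processing notes. An aligner, a strand setting or an annotation was not given in the sources used here. Symbols, gene classes and positions came from GENCODE M21 (mm10), which matched 54165 identifiers.

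Groups were taken from the genotype and treatment labels. Counts were tested with edgeR 4.0.16 in R 4.3.3: TMM scaling, the package's filter on low counts over the 6 groups, and the quasi-likelihood test with 1 mean per group over all 36 libraries, which share an estimate of the spread. P-values were adjusted over 12957 genes by Benjamini-Hochberg and called at 0.05, and a standard error is the log2 change divided by the root of F. CPM are on the TMM scale. Shares of counts were tested by exact permutation of the 12 libraries. The labels give no batch and no replicate numbers, so replicates are numbered only as names and the tests have no block unless the text names the library set, found from the data, as a term. A chi-square per gene of 2.73 to 93.2 between libraries of a group was above sampling noise, so none were merged. Within set B it was 3.59 to 8.42 between controls and 2.73 to 4.66 between LPS libraries. Within set A it was 12.69 to 18.75 and 20.18 to 52.41. Fits of set B alone thus rest on libraries closer to each other, and what this does to their number of calls was not tested. The fit was tested on data simulated from the control means, with few changed genes, as many up as down, and no library sets. That simulation cannot test the scaling or the effect of the sets.

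The 35 gene lists and the genes named were chosen with earlier results of these data known. Named genes are the 12 largest called changes in each direction, up to 3 called members in each direction of every list (all members of lists of 16 or fewer), 5 noncoding genes and 8 genes by CPM gained or lost in each direction, all above a minimum level, and 33 well-known genes. Insig1, members of chromosomal runs and list members given by a log2 change without an error were added after their values were seen. Alternatives covered DESeq2 1.42.0, limma-voom (limma 3.58.1), other scalings and filters, each library set alone or as a term, and each library left out. List counts with the set as a term were added after seeing the data. Mitochondrially encoded genes held no counts. Some genes of the lists are not reported here.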

Additional observations from a re-analysis of the deposited data

Results flagged for a closer look

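In 29 of 362 groups of 6 libraries, the 2 groups of each of 181 genes, the highest or lowest library stood apart from the nearest other by more than 0.625 of the group's range. Chance flags about 1 in 20 groups.

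LPS replicate 1 stood apart most often, as the highest library for 13 genes and the lowest for 1. It was the highest for Cxcl1 (230.2 CPM), Rel (353.2), Nfkbiz (1107), Bcl3 (128), Zc3h12a (317.8), Dusp16 (94.51), Myc (51.88), Cxcr4 (27.19), Lpar1 (9.038), Slc7a2 (171.9), Gadd45a (16.37), Dnmt3a (150.2) and Tfeb (25.19). It was the lowest for Ccl4, at 1625 CPM. These genes include ones that rose and ones that fell. Other LPS libraries stood apart for Egr1 (replicate 2, 80.55 CPM, highest), Cd83 (replicate 2, 696.6 CPM, lowest), Mmp13 (replicate 6, 756.6 CPM, highest) and Plek (replicate 6, 3598 CPM, highest). Replicate 6 is also the library with the most muscle marker RNA.

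Among controls, replicate 1 was the highest for the interferon genes Irf7 (45.12 CPM) and Gbp5 (2.331) and for Traf1 (8.047). Control replicate 3 was the highest for 5 genes that LPS raised, namely Il1b (1.868 CPM), Cxcl10 (2.123), Acod1 (5.944), Nos2 (2.038) and Ptgs2os2 (1.189). Dusp14 stood apart in control replicate 2 (1.507 CPM), F3 in control replicate 5 (2.426) and Abca1 in control replicate 6 (135.6). The control and LPS groups overlapped for Irf7 and Abca1 and for none of the other genes in this paragraph.

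The response to LPS differed between the library sets by an edgeR test of the difference itself for 813 genes, and for 36 of the 181 genes named with a value. The sets are not in the labels but were found from the same counts, and what separates them was not tested.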

How the results depend on the processing

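Scaling by library totals alone moved the calls to 1578 genes higher and 6040 lower, and left 18 of 35 list medians above 0 instead of 29. All 1578 were among the 2626, and 14 of the 2626 were called lower. Against a minimum change of 2-fold, 779 genes were higher and 148 lower. The other alternatives, the library set as a term (3065 and 2959) among them, stayed within 1.5 times of 2626 and 2289. Leaving out each library gave 2501 to 2578 higher and 2093 to 2227 lower. A fit of the 12 libraries alone, without the spread of the others, called 2265 genes higher and 2176 lower. It kept 83.4% of the 2626 and 87.7% of the 2289. Of 181 genes named with a value, 178 kept their direction and call on library totals, 174 in set A alone, 172 in set B alone and 178 with the library set as a term, where Ccr2, H2-Aa and H2-Ab1 were called. Directions turned for 2 genes that were not called: Egr1 was -0.079 in set A and Insig1 was -0.053 in set B. Leaving out 1 library changed 3 genes. Without LPS replicate 1, Myc was called (-0.64) and Csf1r was not (0.25), and Insig1 was called at 0.99, 0.97, 0.92 and 0.93 without control replicate 3, control replicate 4, LPS replicate 4 or LPS replicate 5. The cause was not tested.

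The share of the most counted genes differed by -0.662 percentage points for 20 genes (exact permutation test, p = 0.00433) and by 1.52 for 200 (p = 0.002165). The cytokine share rose by 1.596 points within set A and by 1.823 within set B, and the ribosomal share differed by -0.386 and -0.136 there and by -0.13 without the libraries with muscle markers or Xist. Within a set, 3 against 3 libraries cannot give an exact p below 0.1. The difference between the sets was called for 64 genes without the libraries with muscle markers or Xist, where set A has 1 LPS library left, and for 201 with the 12 libraries alone. No paired analysis was possible because the labels give no replicate numbers. Genes near 0 in controls rest on few counts, and their ratios have wide intervals.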
